A study of Mus musculus with 11 samples.

Results

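The comparison described here is the one in which hepatocytes kept Nemo: mice lacking Cxcr6 against wildtype mice. It holds 5 of the 11 arrays of the study, 3 titled as Cxcr6 knockout (Cxcr6 KO) and 2 titled as wildtype, which are all the wildtype arrays there are. RNA came from hepatocytes of male mice aged 12 weeks, and no treatment was given in any group. The labels name the source of the Cxcr6 KO arrays Nemo_CXCR6 cre- and that of the wildtype arrays Nemo cre-. Neither group carried Cre recombinase, so both are Cre-negative animals of a line bred for deleting Nemo. The 2 groups also come from different mouse lines, so Cxcr6 genotype and mouse line cannot be told apart in any value below. Where a second pair of groups is used, it is Nemo KO (liver-specific knockout of Nemo, source Nemo cre+, 3 arrays) and double KO (the same knockout with Cxcr6 knockout, source Nemo_CXCR6 cre+, 3 arrays). The promoter that drives Cre is not given in the labels, and neither is the hour at which livers were taken. The replicates are called biological, without a statement that each is a separate mouse, so the p-values measure the spread between these samples.

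Cxcr6 is a chemokine receptor of natural killer T (NKT) cells and of subsets of T cells, and in liver it helps such cells to patrol the sinusoids. Its ligand, Cxcl16, is made by sinusoidal endothelial cells, macrophages and, in injury, hepatocytes. Hepatocytes are the parenchymal cells of the liver, which make bile acids, plasma proteins and most of the enzymes of lipid and drug metabolism, and they are not known as a main site of Cxcr6 itself. Nemo, whose gene is Ikbkg, is the regulatory subunit of the kinase complex that activates NF-kB.

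The values are log2 signals of whole-transcript expression arrays, where a difference of 1 is a 2-fold difference. Values of the wildtype arrays are given as replicate 1 and then replicate 2, and those of the Cxcr6 KO arrays as replicates 1, 2 and 3. Hepatocyte marker signal was high: 16 of 16 hepatocyte markers with a row lay above the level used to filter genes (5.27). Their mean was between 18.15 and 18.22 in each of the 5 arrays. Endothelial (21 of 23), Kupffer cell and macrophage (21 of 24) and stellate cell and fibroblast markers (13 of 18) also lay above that level. The markers therefore do not tell isolated hepatocytes from whole liver. T cell markers had means of 5.04 to 5.13 and NK and NKT cell markers of 5.10 to 5.37, both close to the array medians of 5.19 to 5.38. The highest single NK and NKT cell marker averaged 9.99 over the 5 arrays. Kupffer cell and macrophage markers had a mean of 6.43 in wildtype replicate 1, 7.40 in wildtype replicate 2 and 6.75 to 7.02 in the Cxcr6 KO arrays. The Cxcr6 row did not check the genotype. It read 5.35 and 5.47 in wildtype and 5.29, 5.56 and 5.09 in Cxcr6 KO, near the array medians in all of them, and the sources do not say if its probes cover the sequence that was removed. The Ikbkg row read 9.02 and 9.47 in wildtype and 9.12 to 9.18 in Cxcr6 KO.

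The 2 wildtype arrays stood apart from each other, which bears on every value here. Their correlation over all rows of the table was 0.984, against 0.993 to 0.995 between Cxcr6 KO arrays. Wildtype replicate 1 lay more than 1 beyond all 10 other arrays of the study for 110 genes, wildtype replicate 2 for 80, and each Cxcr6 KO array for 0 to 5. Among the arrays with Nemo deleted, double KO replicate 3 did so for 92 genes, Nemo KO replicate 2 for 48 and the other four for 1 to 9. The proliferation marker Mki67 read 5.35 and 11.18 in the 2 wildtype arrays, and the male-biased steroid dehydrogenase gene Hsd3b5 read 13.64 and 7.16. The metallothionein gene Mt2 read 10.64 and 16.71, the liver transcription factor gene Onecut1 15.95 and 9.14, and the heat shock gene Hsph1 13.73 and 10.21. The Cxcr6 KO arrays lay near replicate 1 on Mki67 (5.46 to 5.89) and near replicate 2 on Onecut1 (9.55 to 10.10). With the nearer array left out, the differences were -5.49 for Mki67 and -6.04 for Onecut1. Without wildtype replicate 1, they were -6.69 for Mt2 and 7.25 for Hsd3b5. Each gene below is therefore set against both wildtype arrays singly.

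Of 18337 genes tested, 47 passed 5% after Benjamini-Hochberg adjustment in a limma fit over all 4 groups, which is 0.256% of the genes tested. In Cxcr6 KO 32 were higher (0.175%) and 15 lower (0.0818%). After quantile normalization of the deposited values the split was 36 higher and 9 lower. All 47 had their 3 Cxcr6 KO arrays on one side of both wildtype arrays, and 29 of them differed by 2-fold or more from each wildtype array (20 higher and 9 lower). Over all genes tested the 3 Cxcr6 KO arrays lay above both wildtype arrays for 12.7%, below both for 11.2%, and on either side for 23.9%. The groups did not overlap and differed by 2-fold or more from each wildtype array for 0.48% of genes upward, 0.229% downward and 0.709% in either direction. The wildtype arrays were more than 1 apart for 1 of the 47 (Prelid2), against 6.54% of all genes tested, while their median distance was nearly the same on the 47 (0.21) as on all genes (0.231). The fit gives each gene a single spread for all 4 groups. Fitted on the 5 arrays alone, limma called 0 genes, with a smallest adjusted p of 0.0922 and 1774 genes at an unadjusted p under 0.05, all 47 among them. The 47 were chosen by the same difference on these arrays, so their place among the 1774, like their lack of overlap, lends them no support. The distance between the wildtype arrays enters the spread behind each call, so its rarity above 1 on the 47 lends none either. The count also rested on single arrays. Without Cxcr6 KO replicates 1, 2 and 3 in turn it was 33, 8 and 9, of which 22, 8 and 9 were among the 47. Leaving out a wildtype array leaves 1 in its group, so such a fit measures no spread between wildtype arrays. Its counts are not given, and calls lost in such fits below do not reflect that spread. Because all groups share the spread, arrays with Nemo deleted moved the count as well: it was 30 without double KO replicate 1, 26 without double KO replicate 3, 21 without Nemo KO replicate 1 and 31 without Nemo KO replicate 3, of which 29, 22, 21 and 28 were among the 47. The 8 genes called in each of the 3 fits without a Cxcr6 KO array were Acpp, Aqp4, Cdcp1, Gm3704, Mir1948, Prelid2, Sugct and Ulk2.

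**Figure D1:**
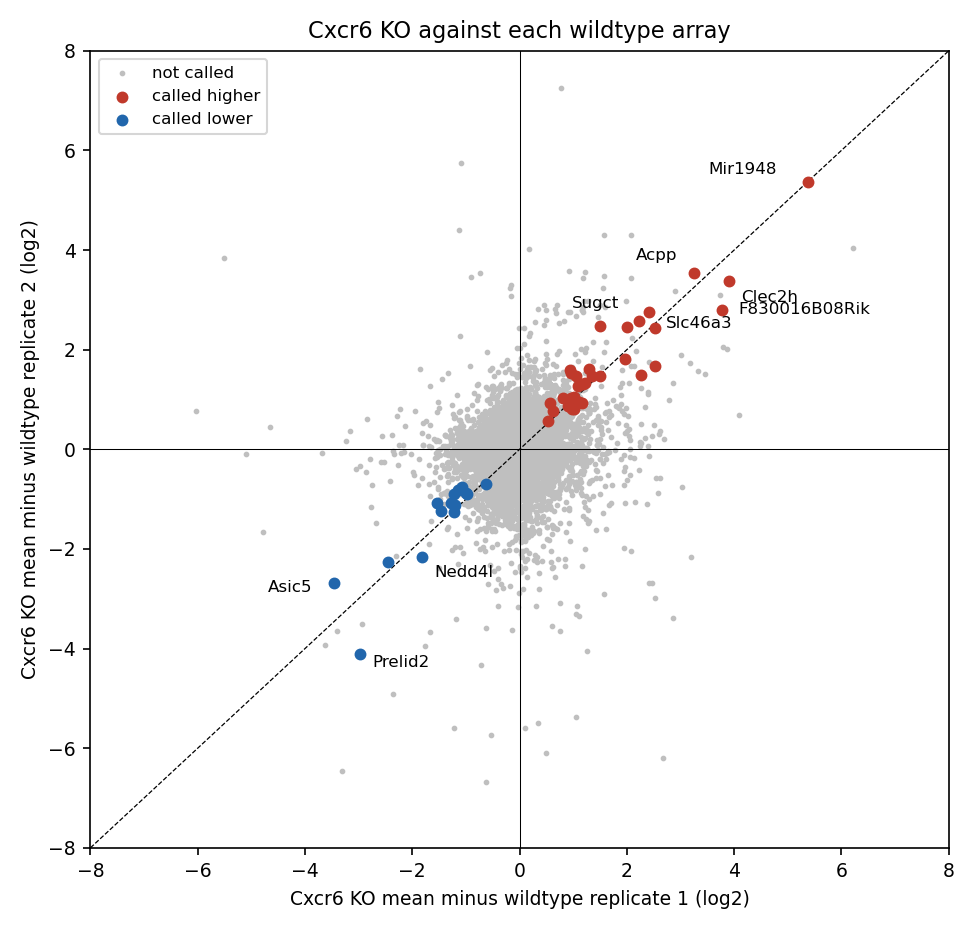
Difference of the Cxcr6 KO mean (n = 3) to wildtype replicate 1 (horizontal, log2) and to wildtype replicate 2 (vertical, log2) for all 18337 genes tested, with the 47 called genes in colour and a dashed line where both differences are equal. The called genes lie near that line, from Prelid2 at -2.98 and -4.12 to Mir1948 at 5.38 and 5.36, while many grey points lie along one axis, where the wildtype arrays differ from each other. That difference enters the spread behind each call, so the choice of called genes favours a place near the line.

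Among called genes with a protein product, the largest rises were those of Clec2h and Acpp, whose wildtype signal lay near the array median. Clec2h, a C-type lectin-like protein of the Clr family, whose members are ligands of the Nkrp1 receptors of NK cells, read 4.93 and 5.46 in wildtype and 8.64, 8.93 and 8.95 in Cxcr6 KO. It rose by 3.64 ± 0.39 (SE) on the log2 scale, 12.5-fold (limma adjusted p = 0.00925). All 3 Cxcr6 KO arrays lay far above both wildtype arrays, by means of 3.90 and 3.38. Acpp, a transmembrane acid phosphatase that also turns AMP into adenosine, read 5.41 and 5.11 in wildtype and 8.39, 8.72 and 8.86 in Cxcr6 KO. It rose by 3.40 ± 0.31, 10.5-fold (limma adjusted p = 0.0046). For both genes the wildtype arrays sat where most silent rows of the array sit, so the folds are not exact ratios of RNA amounts. The call of Clec2h was lost without Cxcr6 KO replicate 2 or 3 (largest limma adjusted p 0.0587).

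Several genes with a wildtype signal above the array medians rose as well, though that of Aqp4 lay below the 75th percentile of row means (6.95). Sugct, the mitochondrial enzyme that activates glutarate with coenzyme A from succinyl-CoA, read 8.97 and 8.61 in wildtype and 11.28, 11.16 and 11.14 in Cxcr6 KO, a rise of 2.40 ± 0.19 (5.28-fold, limma adjusted p = 0.00261). Slc46a3, a transporter of the lysosomal membrane, read 10.81 and 10.46 in wildtype and 12.96, 13.18 and 13.53 in Cxcr6 KO, a rise of 2.58 ± 0.36 (limma adjusted p = 0.0328). On both genes all 3 Cxcr6 KO arrays were well above both wildtype arrays, by means of at least 2.22 for Sugct and 2.41 for Slc46a3. Aqp4, a water channel best known from astrocytes, read 6.12 and 6.16 in wildtype and 7.53 to 7.72 in Cxcr6 KO (1.49 ± 0.12, limma adjusted p = 0.00261). Ttc39c, a tetratricopeptide repeat protein, read 12.11 and 12.26 against 13.90 to 14.33 (1.88 ± 0.24, limma adjusted p = 0.0193). The calls of Slc46a3 and Ttc39c were lost when any of the 3 Cxcr6 KO arrays was left out (limma adjusted p up to 0.135 and 0.0806), while those of Sugct and Aqp4 held in all 3 such fits.

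Genes that fell did so from a clear wildtype signal. Prelid2, a protein with the PRELI domain of mitochondrial lipid carriers, read 9.09 and 10.23 in wildtype and 6.23, 6.03 and 6.07 in Cxcr6 KO. It fell by 3.55 ± 0.30 on the log2 scale, 11.7-fold, with differences of -2.98 and -4.12 to the 2 wildtype arrays (limma adjusted p = 0.00261). Asic5, an ion channel of the acid-sensing family that bile acids open, read 11.32 and 10.56 in wildtype and 8.22, 7.47 and 7.92 in Cxcr6 KO. It fell by 3.07 ± 0.43, 8.4-fold (limma adjusted p = 0.0329). Nedd4l, a ubiquitin ligase that removes the epithelial sodium channel from the cell surface, read 12.04 and 12.37 in wildtype and 10.45, 9.84 and 10.36 in Cxcr6 KO. It fell by 1.99 ± 0.31 (limma adjusted p = 0.0447). None of the 9 Cxcr6 KO values of these genes reached a wildtype value. The calls of Asic5 and Nedd4l were lost when any of the 3 Cxcr6 KO arrays was left out, that of Nedd4l also without wildtype replicate 2 (limma adjusted p up to 0.145 and 0.181).

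Smaller falls were those of Cdcp1, a transmembrane glycoprotein phosphorylated by Src kinases (6.36 and 6.39 against 4.92 to 5.30, -1.24 ± 0.12, limma adjusted p = 0.00615), and Stap1, a signalling adaptor (7.49 and 7.04 against 5.86 to 6.11, -1.31 ± 0.20). Slc17a1, a phosphate and urate transporter, read 9.68 and 9.49 against 8.22 to 8.61 (-1.18 ± 0.17). The splicing factor Tra2a, the lysophospholipase Pnpla6, the dipeptidyl peptidase Dpp9, the DNA-binding regulator Fubp1 and the topoisomerase Top3b fell by 0.66 to 1.06. On each of these 8 genes the 3 Cxcr6 KO arrays lay below both wildtype arrays. Except for Cdcp1, these calls were lost when any of the 3 Cxcr6 KO arrays was left out, that of Dpp9 also without wildtype replicate 1 and that of Top3b without replicate 2 (largest limma adjusted p 0.184).

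**Figure D2:**
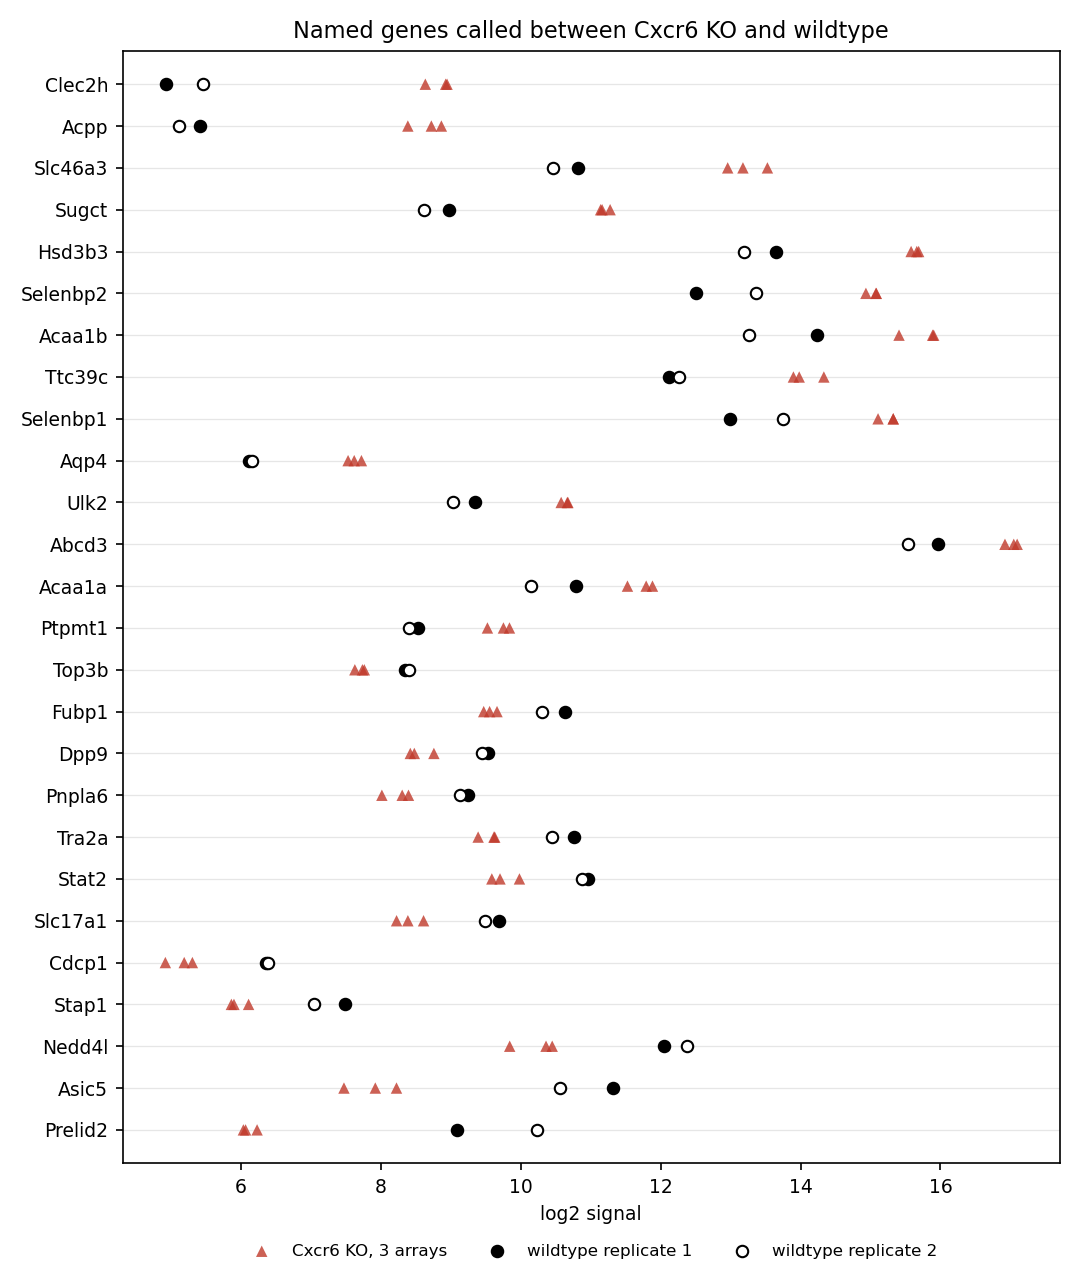
Log2 signal (horizontal) of each array for the 26 named genes that passed 5% (rows, ordered by log2 fold change), with Cxcr6 KO arrays as triangles and wildtype replicates 1 and 2 as filled and open circles. In every row the triangles lie on one side of both circles, with the widest gaps at Clec2h and Acpp above and Asic5 and Prelid2 below.

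Hsd3b3 and both selenium-binding protein genes had abundant transcripts that rose about 4-fold. Hsd3b3, a 3-beta-hydroxysteroid dehydrogenase of liver and kidney, read 13.65 and 13.19 in wildtype and 15.58, 15.66 and 15.69 in Cxcr6 KO, a rise of 2.22 ± 0.23 (4.67-fold, limma adjusted p = 0.00925). Selenbp1, a methanethiol oxidase, read 12.99 and 13.76 in wildtype and 15.11, 15.33 and 15.32 in Cxcr6 KO, a rise of 1.88 ± 0.22 (limma adjusted p = 0.0114). Selenbp2, a close relative that binds acetaminophen metabolites, read 12.51 and 13.36 in wildtype and 14.93, 15.08 and 15.08 in Cxcr6 KO, a rise of 2.10 ± 0.24 (limma adjusted p = 0.0114). On all 3 genes the Cxcr6 KO arrays lay close together and above both wildtype arrays, with a mean at least 1.99, 1.5 and 1.68 above the nearer wildtype array. These calls were lost without Cxcr6 KO replicate 2 or 3 (largest limma adjusted p 0.0587 for Hsd3b3 and 0.0652 for the other two). Other members of the Hsd3b family, chosen after their values were seen, did not pass: Hsd3b2 read 13.62 and 11.28 against 12.12 in all 3 Cxcr6 KO arrays, inside the wildtype range, and Hsd3b6 read 7.21 and 6.78 against 7.54 to 7.71 (0.62 ± 0.17, limma adjusted p = 0.181). Members of a family with near-identical sequence can share signal on such arrays. Whether the rows of Selenbp1 and Selenbp2 do was not tested.

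Selenbp1 and Selenbp2 lie 7 genes apart on the same strand of chromosome 3 and moved together, and their upstream regions are shown because they are alike as well. Each is the 250 bases before the gene's start in RefSeq (GRCm38.p6, 5′ to 3′ on the + strand), at chr3:94932833-94933082 for Selenbp1 and chr3:94693323-94693572 for Selenbp2. Capitals mark the longest run that both share, 69 bases.
Selenbp1: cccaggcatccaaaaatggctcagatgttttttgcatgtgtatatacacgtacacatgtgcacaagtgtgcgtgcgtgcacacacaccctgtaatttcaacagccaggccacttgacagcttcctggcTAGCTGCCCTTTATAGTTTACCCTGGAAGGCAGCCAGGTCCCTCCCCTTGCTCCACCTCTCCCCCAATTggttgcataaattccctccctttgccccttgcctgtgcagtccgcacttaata
Selenbp2: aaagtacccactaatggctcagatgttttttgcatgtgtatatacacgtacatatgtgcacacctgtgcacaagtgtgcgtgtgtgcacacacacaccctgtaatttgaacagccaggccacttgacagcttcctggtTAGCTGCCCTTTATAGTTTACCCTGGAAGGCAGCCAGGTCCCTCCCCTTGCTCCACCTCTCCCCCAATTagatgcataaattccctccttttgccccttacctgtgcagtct
A global alignment of the pair had 225 identical positions in 262 columns (85.88%), against 51.39% for the upstream regions of Acaa1a and Acaa1b, another nearby pair that rose, and 48.64% for Selenbp1 and Acaa1a, which are unrelated. Neither sequence held the E-box CACGTG, the D-box TTANGTAA or the nuclear receptor half-site AGGTCA on either strand, motifs found in 6.021%, 2.061% and 14.02% of the 32851 upstream regions of the same length. These letters are a description of this window only.

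Fatty acid oxidation with the Ppara targets was the only list with more than 1 called member. Peroxisomes shorten very long and branched fatty acids, and in mouse liver many of their enzymes are targets of the fatty acid receptor Ppara. Acaa1b, a peroxisomal 3-ketoacyl-CoA thiolase that performs the last step of each cycle, read 14.24 and 13.27 in wildtype and 15.41, 15.90 and 15.89 in Cxcr6 KO (1.98 ± 0.29, 3.95-fold, limma adjusted p = 0.0419). Its close relative Acaa1a, with which it can share signal, read 10.80 and 10.15 in wildtype and 11.53, 11.79 and 11.88 in Cxcr6 KO (1.26 ± 0.19, limma adjusted p = 0.043). Abcd3, which is not on the list, is the transporter that carries fatty acids and bile acid precursors across the peroxisomal membrane. It read 15.96 and 15.54 in wildtype and 16.92, 17.10 and 17.05 in Cxcr6 KO (1.27 ± 0.19, limma adjusted p = 0.043). The groups did not overlap on any of the 3 genes, and wildtype replicate 1 was the nearer array on each. All 3 calls were lost when any of the 3 Cxcr6 KO arrays was left out, that of Abcd3 also without wildtype replicate 2 (largest limma adjusted p 0.181).

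Of the 28 tested genes of the list of fatty acid oxidation and Ppara targets, 2 rose (Acaa1a and Acaa1b) and 0 fell, and 9 lay above and 1 below both wildtype arrays (35.7% not overlapping). Over all genes 0.256% were called and 23.9% did not overlap. The list's median difference was 0.56, against 0.01 over all genes, but it was 0.14 against wildtype replicate 1 and 0.75 against replicate 2. Ppara itself read 12.15 in both wildtype arrays and 12.73, 13.18 and 13.02 in Cxcr6 KO (0.83 ± 0.18, limma adjusted p = 0.137). Its targets Acot3 (8.47 and 7.68 against 8.93 to 10.16) and Ehhadh, an enzyme of the middle steps of the peroxisomal cycle (13.64 and 14.87 against 15.44 to 15.70), did not overlap either and missed 5%. Acot3 passed without Cxcr6 KO replicate 1 (2.02, limma adjusted p = 0.0378), and Ehhadh differed by 1.95 without wildtype replicate 2. Pdk4, which shuts pyruvate out of the mitochondrion in fasting, was the member below both wildtype arrays (8.74 and 9.69 against 7.71 to 8.55, limma adjusted p = 0.80).

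Ulk2 was the called protein-coding gene with the smallest p. This kinase starts autophagy, the process by which cells digest their own organelles. It read 9.35 and 9.03 in wildtype and 10.58, 10.66 and 10.67 in Cxcr6 KO (1.45 ± 0.11, 2.73-fold, limma adjusted p = 0.00204). Its call held in all 3 fits with a Cxcr6 KO array left out. Ptpmt1, a mitochondrial phosphatase needed to make cardiolipin, read 8.53 and 8.40 against 9.52, 9.75 and 9.84 (1.24 ± 0.13, limma adjusted p = 0.00925). The next 4 genes were chosen after their values were seen. Bnip3l, a receptor that marks mitochondria for autophagy, rose by 0.70 ± 0.11 (9.67 and 9.53 against 10.26 to 10.34), and Abcb10, a transporter of the inner mitochondrial membrane, by 1.18 ± 0.16 (7.92 and 7.75 against 8.79 to 9.26). Bid, which links death receptors to the mitochondrion, rose by 1.05 ± 0.16 (6.24 and 6.47 against 7.16 to 7.58), and Hfe, the haemochromatosis protein that tunes hepcidin to iron, by 1.03 ± 0.14 (8.95 and 9.12 against 9.89 to 10.28). On all 6 genes the Cxcr6 KO arrays lay above both wildtype arrays. The calls of Ptpmt1, Abcb10 and Hfe were lost without Cxcr6 KO replicate 2 or 3, and those of Bnip3l and Bid when any of the 3 was left out (limma adjusted p up to 0.201). Bnip3l lost it also without wildtype replicate 2 and Bid without replicate 1. The 13 called genes not described singly were 11 that rose, by 0.55 (Fry) to 1.41 (9130409I23Rik), and 2 that fell, A430033K04Rik by 0.98 and 1500015A07Rik by 1.35.

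Some of the largest differences were on rows of a microRNA gene, an olfactory receptor and genes with provisional symbols. Of the called rows below, the rule for naming genes takes only F830016B08Rik. The row of the microRNA gene Mir1948 read 5.57 and 5.58 in wildtype and 11.50, 10.92 and 10.43 in Cxcr6 KO, a rise of 5.37 ± 0.52 (limma adjusted p = 0.00586). The call of Mir1948 held in all 3 fits with a Cxcr6 KO array left out. Its wildtype signal lay near the array median, so the difference is no exact ratio of RNA amounts. The row does not tell a mature microRNA from a longer transcript of the locus. F830016B08Rik read 9.53 and 10.51 against 13.83, 13.01 and 13.07 (3.28 ± 0.38, limma adjusted p = 0.0114), and the olfactory receptor row Olfr1034 read 5.45 and 5.54 against 8.29, 7.35 and 8.28 (2.48 ± 0.38, limma adjusted p = 0.0447). The predicted gene Gm3704 had the smallest p of all genes: 7.77 and 7.58 against 5.43, 5.11 and 5.43 (-2.36 ± 0.14, limma adjusted p = 0.000474). On each row the 2 groups were far apart, with means at least 2.26 from the nearer wildtype array. The calls of F830016B08Rik (without Cxcr6 KO replicate 2 or 3) and Olfr1034 (without any of the 3 or wildtype replicate 2) were lost, with limma adjusted p up to 0.0605 and 0.201. By contrast, the row of Mir122, the microRNA gene most active in hepatocytes, read 11.20 and 11.44 in wildtype and 7.02, 8.33 and 8.05 in Cxcr6 KO and missed 5% (-3.52 ± 0.64, limma adjusted p = 0.0862).

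Immune genes that touch Cxcr6-bearing cells were examined for the same arrays. The ligand Cxcl16 read 5.69 and 6.09 in wildtype and 5.76, 5.85 and 5.66 in Cxcr6 KO (-0.13 ± 0.19, limma adjusted p = 0.86), and the lipid-presenting molecule of NKT cells, Cd1d1, read 13.20 and 13.84 against 13.56 to 13.63. On both genes the Cxcr6 KO arrays overlapped the wildtype range. Of 20 tested chemokines and chemokine receptors, 0 passed 5% and 1 (5%, against 23.9% of all genes), Cxcl9, lay outside both wildtype arrays. Cxcl9 read 9.19, 8.35 and 8.77 in Cxcr6 KO, whose mean differed by -1.23 and -5.60 from the 2 wildtype arrays (limma adjusted p = 0.221). Of 19 tested genes of antigen presentation and NKT ligands, 1 rose (Clec2h) and 0 fell, against 0.256% of all genes called, and 3 did not overlap (15.8%, against 23.9% of all genes). The list's median was 0.29 against wildtype replicate 1 and -0.69 against replicate 2. Kupffer cell markers were highest in wildtype replicate 2, as given above, and their part in these differences was not tested. In bulk RNA such as this, fewer cells of a type and less RNA per cell cannot be told apart.

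Stat2, the transcription factor through which type I interferon acts, fell. It read 10.96 and 10.87 in wildtype and 9.59, 9.70 and 9.98 in Cxcr6 KO, a difference of -1.16 ± 0.13 (2.23-fold lower, limma adjusted p = 0.0114; 0.0616 without Cxcr6 KO replicate 2). It was the only member of the interferon list to pass: of 30 tested, 0 rose and 1 fell, against 0.256% of all genes called. The 7 members that did not overlap, all lower, were 23.3% of the list, close to the 23.9% of all genes. The list's median was -0.41, made of 0.07 against wildtype replicate 1 and -0.87 against replicate 2, with 13 and 29 members lower. Its interferon partner Irf9 read 7.81 and 8.04 against 7.59 to 7.68 (-0.28, limma adjusted p = 0.554). Igtp, a GTPase induced by interferon gamma, read 10.51 and 12.99 against 10.04 to 10.37 (limma adjusted p = 0.345). Stat2 thus differed by nearly the same amount from each wildtype array (-1.20 and -1.12), whereas Igtp differed by -0.31 and -2.79.

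Of the genes of the circadian clock loop, 8 lay outside both wildtype arrays in Cxcr6 KO and none passed 5%. The clock of liver cells is a loop in which Arntl and Clock switch on the Per, Cry and Nr1d genes, whose products act back on them, so that Arntl and Dbp peak at opposite times of day. Arntl read 9.94 and 10.51 in wildtype and 7.39, 6.69 and 6.93 in Cxcr6 KO (-3.22 ± 0.73, limma adjusted p = 0.14). Its partners Clock (13.12 and 13.08 against 11.60 to 12.26, -1.19 ± 0.25, limma adjusted p = 0.115) and Npas2 (6.63 and 8.04 against 5.90 to 6.13) and the repressor Cry1 (7.89 and 7.71 against 7.12 to 7.49) also lay below both wildtype arrays. Per3, Cry2, Nr1d2 and Bhlhe40, which belong to the repressing side of the loop, lay above both. Per3 read 6.06 and 6.37 in wildtype and 7.33, 8.51 and 8.06 in Cxcr6 KO, and Nr1d2 read 10.81 and 11.51 against 12.31 to 12.53. The remaining members, Per1, Per2, Nr1d1, Rora, Bhlhe41, Csnk1d and Csnk1e, overlapped between the groups.

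In all, 8 of 15 tested members of the core loop did not overlap (53.3%, against 23.9% of all genes), 4 on each side. Among genes that the clock drives, Dbp, a transcription factor, read 7.12 and 7.75 in wildtype and 9.90, 11.55 and 11.10 in Cxcr6 KO (3.41 ± 0.93, limma adjusted p = 0.186). Usp2, a deubiquitinase, read 6.61 and 6.32 against 8.40, 9.68 and 10.43 (3.04 ± 0.60, limma adjusted p = 0.0986), and Wee1, a cell cycle kinase, 7.24 and 7.70 against 8.43, 9.94 and 9.75. Cxcr6 KO replicate 1 was the lowest of its group on Dbp, Usp2, Wee1 and Per3 and the highest on Arntl and Clock. Of 24 tested clock outputs, 14 did not overlap (58.3%), 9 above and 5 below, and 0 passed 5%. The median difference of the outputs was 0.28, 0.08 against wildtype replicate 1 and 0.13 against replicate 2. The labels give no hour of collection, and the part of sampling time in these values was not tested.

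**Figure D3:**
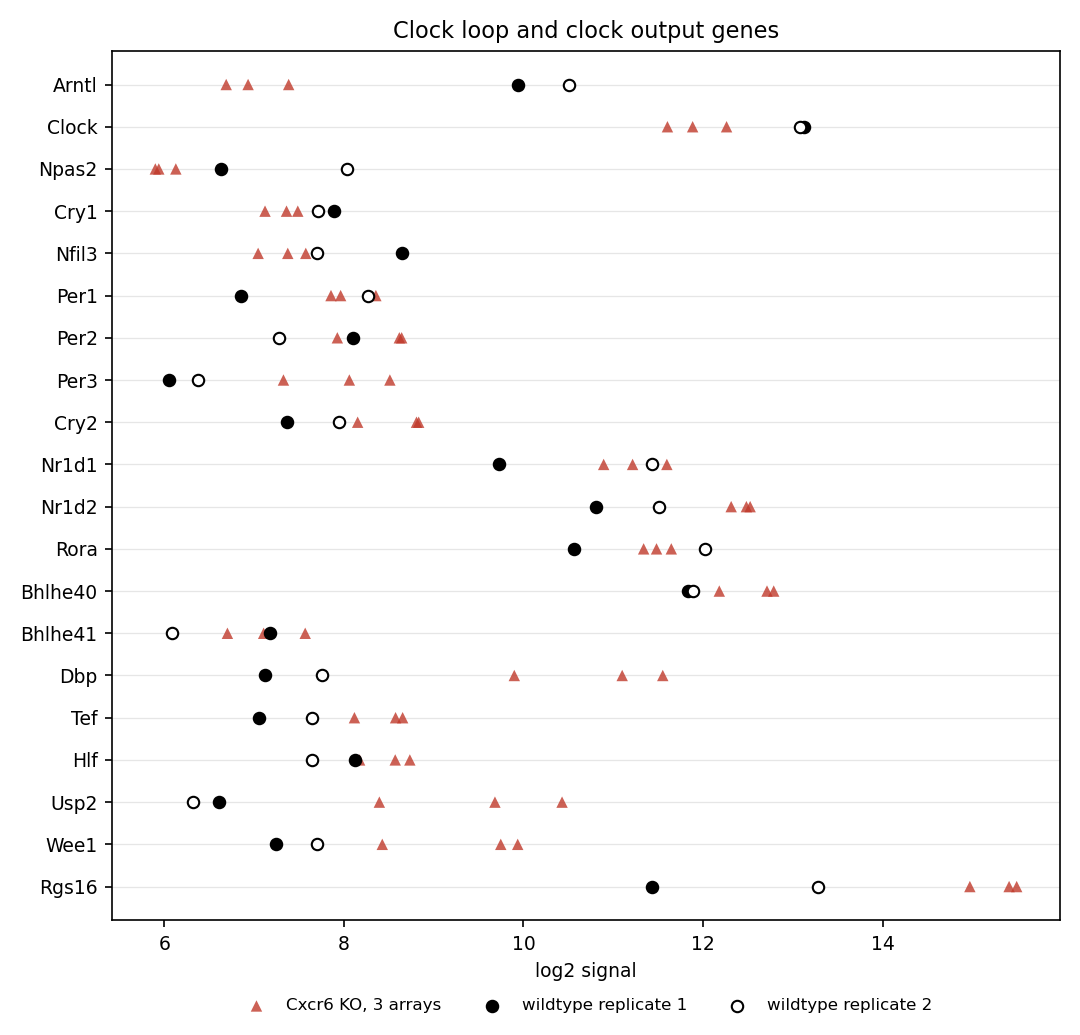
Log2 signal (horizontal) of each array for 20 clock loop and clock output genes, with Cxcr6 KO arrays as triangles and wildtype replicates 1 and 2 as filled and open circles. Arntl, Clock, Npas2, Cry1 and Nfil3 lie lower in all 3 Cxcr6 KO arrays than in both wildtype arrays, and Per3, Cry2, Nr1d2, Bhlhe40, Dbp, Tef, Hlf, Usp2, Wee1 and Rgs16 higher. None passed 5%. Nfil3, Tef, Hlf and Rgs16 were chosen after their values were seen. Over all 24 tested clock outputs, 9 lay above and 5 below both wildtype arrays.

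Differences in lipid synthesis genes depended on the wildtype array they were set against. Of 17 tested genes of cholesterol synthesis, 0 passed 5%, 10 lay above both wildtype arrays (58.8%, against 12.7% of all genes) and 0 below both. The median difference was 1.51 against wildtype replicate 1 and 0.26 against replicate 2. Hmgcs1, which makes the substrate of the rate-limiting step, read 14.62 and 16.64 in wildtype and 17.19, 16.94 and 17.25 in Cxcr6 KO (1.5 ± 0.53, limma adjusted p = 0.325). Hsd17b7 read 10.78 and 11.01 against 12.06 to 12.64 (limma adjusted p = 0.19), the widest gap of the list to the nearer wildtype array. For the 30 tested genes of lipogenesis the medians were 0.94 and -0.05, with 5 above and 3 below both arrays (26.7% not overlapping, against 23.9% of all genes). Me1, which supplies NADPH for fatty acid synthesis, read 14.37 and 15.00 against 16.01, 16.53 and 16.20 (1.56 ± 0.29, limma adjusted p = 0.0921). Without wildtype replicate 2 the differences were 2.51 for Hmgcs1 and 1.87 for Me1.

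Acute-phase genes were the list with the most members below both wildtype arrays. These are plasma proteins that hepatocytes make in inflammation. Of 27 tested, 0 passed 5%, 13 lay below both wildtype arrays (48.1%, against 11.2% of all genes) and 0 above both. The median was -0.38, made of -0.23 against wildtype replicate 1 and -0.42 against replicate 2. Lbp, which binds bacterial lipopolysaccharide, read 13.43 and 13.68 in wildtype and 12.06, 11.78 and 12.41 in Cxcr6 KO (-1.47 ± 0.33, limma adjusted p = 0.137). Itih3 read 16.68 and 16.89 against 16.02 to 16.10, and the fibrinogen chain Fgg 19.58 and 19.67 against 19.26 to 19.36, close to the top of the scale, where differences are compressed. Hamp, which encodes the iron hormone hepcidin, read 19.12 and 18.96 against 17.85 to 18.34 (limma adjusted p = 0.309).

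Several sex-biased and proliferation genes differed widely between the wildtype arrays. Of 26 tested male-biased genes, 1 rose (Selenbp2) and 0 fell, against 0.256% of all genes called. Of these 26, 9 lay above and 2 below both wildtype arrays (42.3% not overlapping), and of 23 female-biased genes 3 lay above and 5 below (34.8%), against 23.9% of all genes. The median of the male-biased genes was 0.01 against wildtype replicate 1 and 0.87 against replicate 2, and that of the female-biased genes was 0.55 and -0.55, so the 2 medians had opposite signs against replicate 2. Hsd3b5 read 13.64 and 7.16 in wildtype and 14.15, 14.68 and 14.42 in Cxcr6 KO, above both arrays (limma adjusted p = 0.387). Slco1a1, a male-biased organic anion transporter, read 16.48 and 15.32 against 16.42 to 16.61. Of 39 tested cell cycle genes, 0 passed 5%, 0 lay above and 2 below both wildtype arrays (5.13% not overlapping, against 23.9% of all genes). Their median was 0.15 against wildtype replicate 1 and -1.40 against replicate 2. Cdkn1a, the p53 target that halts the cell cycle, lay below both: 8.91 and 11.46 in wildtype and 6.54, 6.01 and 7.11 in Cxcr6 KO (-3.64 ± 0.81, limma adjusted p = 0.137). Without wildtype replicate 1 the difference was -4.91. Of 18 tested p53 targets, 0 passed 5%, 2 lay above and 3 below both wildtype arrays (27.8% not overlapping, against 23.9% of all genes), with a median of -0.08 (-0.10 with the arrays centred on their medians and -0.03 after quantile normalization).

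**Figure D4:**
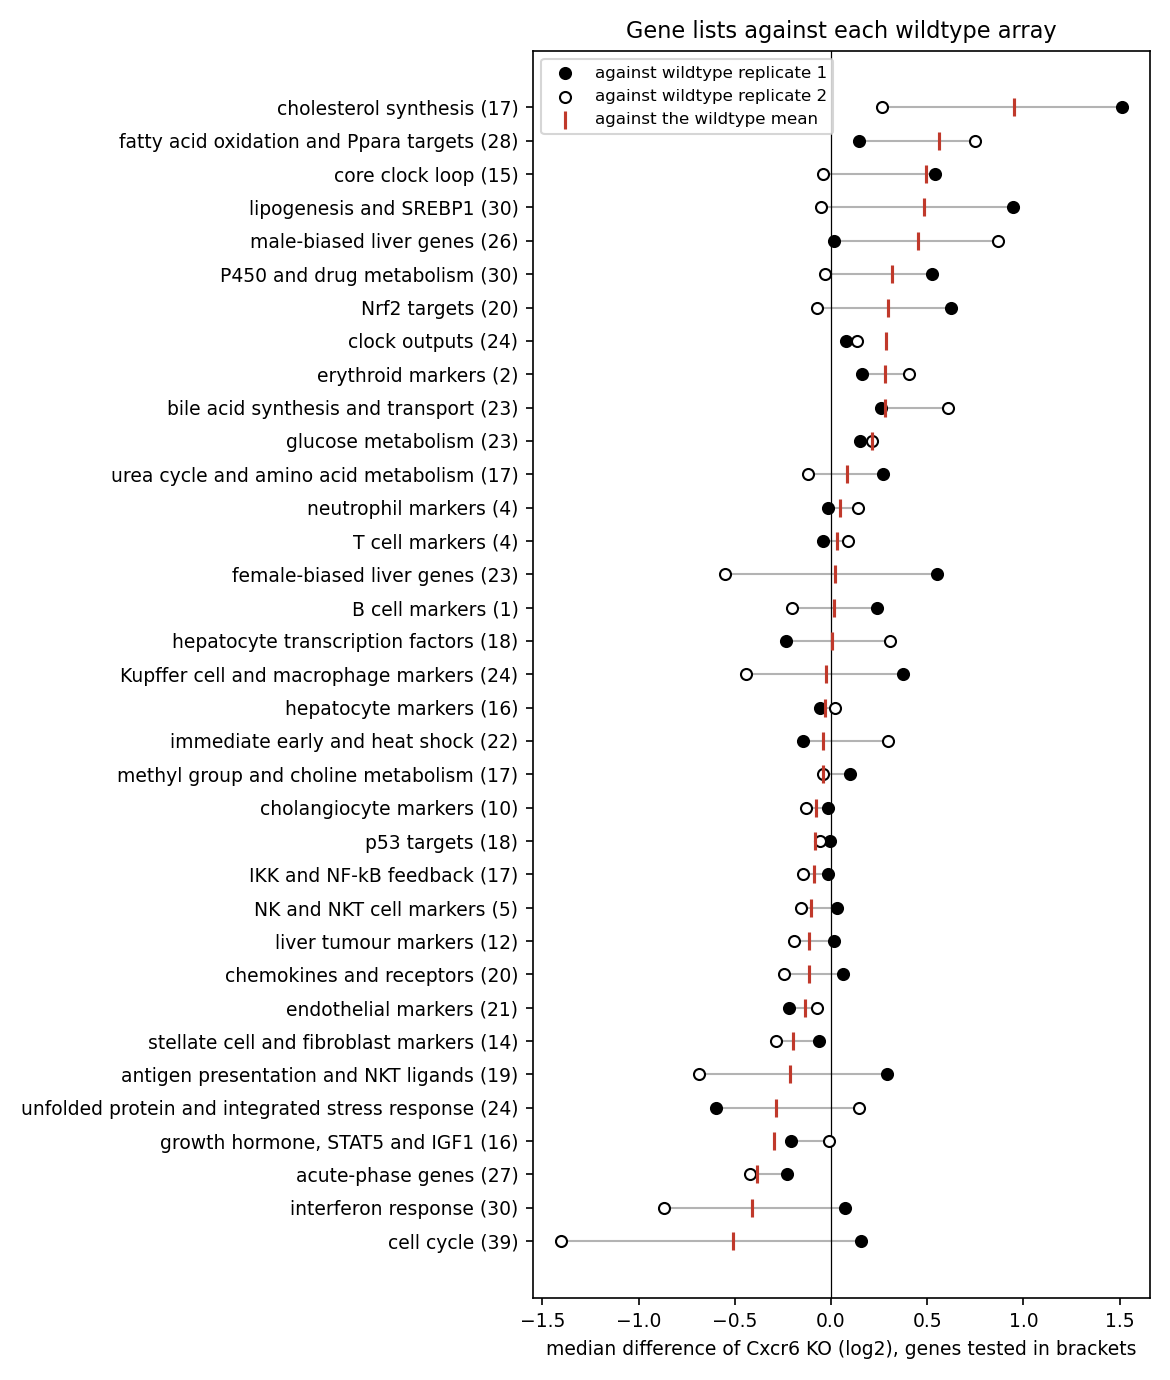
Median difference of Cxcr6 KO (horizontal, log2) over the tested genes of each list (rows, number of genes in brackets), against wildtype replicate 1 (filled), wildtype replicate 2 (open) and the wildtype mean (bar). The circles of cell cycle (0.15 and -1.40), lipogenesis (0.94 and -0.05) and interferon response (0.07 and -0.87) lie on opposite sides of 0, while those of cholesterol synthesis (1.51 and 0.26) and acute-phase genes (-0.23 and -0.42) lie on one side.

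Large differences to both wildtype arrays were also seen in genes that missed 5%. Mme and Angptl8 were chosen after their values were seen. Mme, the cell surface peptidase neprilysin, read 5.80 and 7.98 in wildtype and 11.64, 12.14 and 12.28 in Cxcr6 KO (5.13 ± 1.03, limma adjusted p = 0.103). Chka, the first kinase of phosphatidylcholine synthesis, read 11.18 and 14.33 against 8.0, 7.64 and 7.97 (-4.88 ± 1.21, limma adjusted p = 0.164). Angptl8, a feeding-induced inhibitor of lipoprotein lipase, read 13.53 and 13.84 against 7.66, 11.07 and 11.02 (-3.77 ± 1.15, limma adjusted p = 0.247). On these 3 genes the groups did not overlap, while the wildtype arrays differed widely on Mme and Chka and the Cxcr6 KO arrays on Angptl8. Mme differed by 6.22 without wildtype replicate 2 and Chka by -6.46 without replicate 1.

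The 47 genes were then read in the 6 arrays with Nemo deleted, where double KO against Nemo KO gives the same difference in Cxcr6 genotype and mouse line. The 2 comparisons share no array, but they share the mouse lines and the estimate of spread. The Ikbkg row did not check the deletion of Nemo: it read 9.33, 9.18 and 9.45 in Nemo KO and 8.76, 8.90 and 9.49 in double KO, overlapping the arrays with Nemo intact, and the sources do not say if its probes cover the deleted part. In double KO against Nemo KO 109 genes passed 5% (0.594% of those tested). Of the 47 genes, 43 had the same sign there and 21 also passed 5%, 17 higher and 4 lower. The 21 are 44.7% of the 47 and 19.3% of the 109. The share of all genes with the same sign in both comparisons is not given here, so the counts of same signs have no background. The 109 fell to 29 without double KO replicate 3, 49 without double KO replicate 2, 19 without Nemo KO replicate 1 and 47 without Nemo KO replicate 2, and the 21 to 15, 15, 12 and 13. Of the 47 genes, 41 to 44 had the same sign with any of these 6 arrays left out. The 4 with the opposite sign, Fubp1, Nedd4l, Tra2a and Trhde, did not pass there. Mir1948 differed by 4.97 ± 0.46, Clec2h by 2.40 ± 0.35, Acpp by 2.02 ± 0.28, Hsd3b3 by 1.96 ± 0.21 and Selenbp2 by 1.96 ± 0.21. Olfr1034 differed by 4.05 ± 0.34, against 2.48 with Nemo intact.

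Other genes showed little difference once Nemo was deleted. Asic5 read 10.62 and 10.38 (means of 3) in Nemo KO and double KO (-0.23 ± 0.39, limma adjusted p = 0.774), so that double KO lay near wildtype and Cxcr6 KO lay alone. Nedd4l read 11.96 and 12.07 (0.10 ± 0.27), Acaa1b 14.22 and 14.53 (0.32 ± 0.26), Ttc39c 13.46 and 13.68 (0.23 ± 0.21) and Slc17a1 8.55 and 8.54 (-0.01 ± 0.15). For Ttc39c, Slc17a1 and Slc46a3 (12.87 and 13.69) both groups with Nemo deleted lay near Cxcr6 KO, not near wildtype. For Stat2 the means were 10.89 and 10.54 (-0.35 ± 0.12, limma adjusted p = 0.204). The clock gene means were close as well: Arntl averaged 9.11 and 9.66, and Dbp 7.79 and 7.60, although single double KO arrays ran from 7.93 to 10.56 on Arntl and from 6.42 to 9.79 on Dbp. Double KO against Nemo KO did not pass 5% on any of these genes. The interaction, which is the difference in double KO against Nemo KO minus that in Cxcr6 KO against wildtype, gave 0 genes at 5% in limma (0% of 18337), with 2155 genes at an unadjusted p under 0.05 and a smallest adjusted p of 0.251. Of the 47 genes, 32 had an unadjusted interaction p under 0.05, among them Asic5 (2.84, adjusted p = 0.251) and Nedd4l (2.09, adjusted p = 0.251). The 47 were chosen by the difference that the interaction subtracts, in the same fit. Low interaction p-values are therefore favoured by that choice, and the 32 cannot tell if Nemo state changed the difference. Leaving out an array with Nemo deleted gave 0 to 7 genes for the interaction, the 7 without double KO replicate 1. Counts without a wildtype array are not given, since the 1 left measures no wildtype spread.

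**Figure D5:**
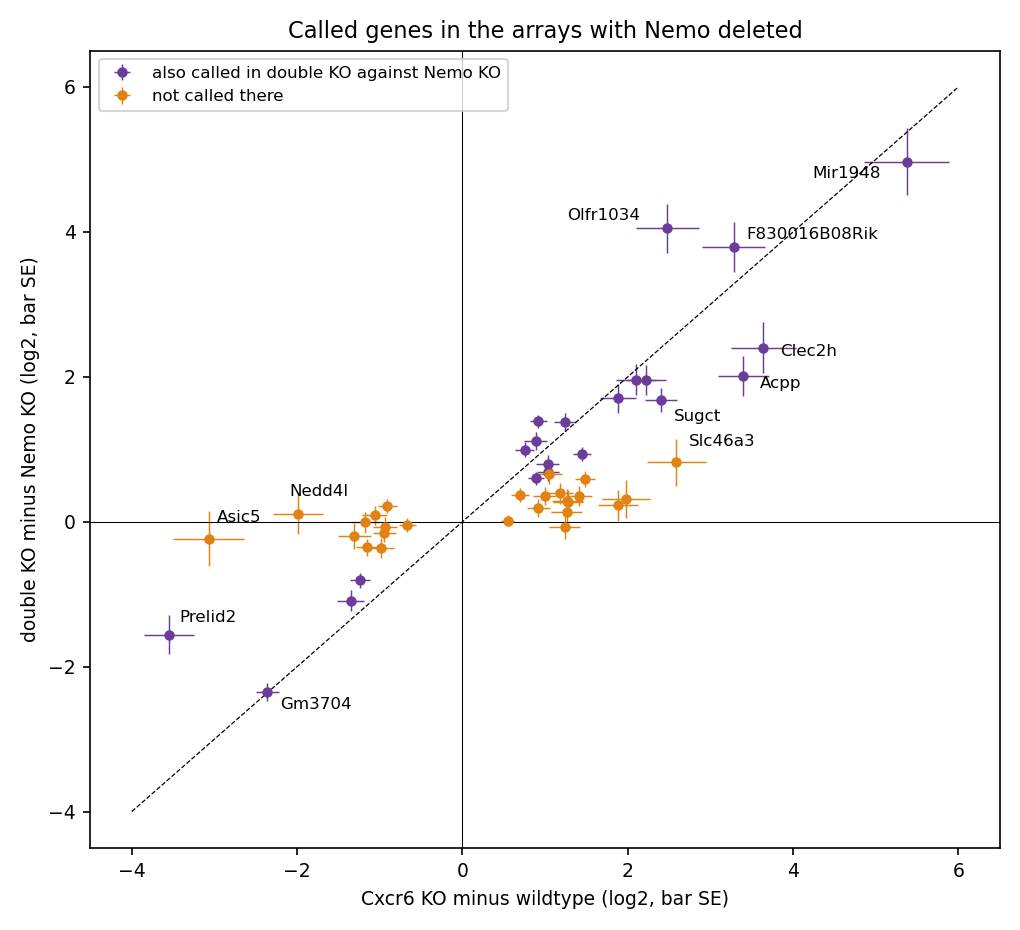
Log2 fold change of Cxcr6 KO against wildtype (horizontal) and of double KO against Nemo KO (vertical) for the 47 called genes, with standard errors from the limma fit as bars and a dashed line of equal values. The 21 genes called in both (purple) have the same sign on both axes, led by Mir1948 at 5.37 and 4.97, while Asic5 and Nedd4l lie near 0 on the vertical axis, at -0.23 and 0.10.

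The called genes were not spread evenly over the chromosomes that the row identifiers give, a point noticed after the values were seen and described here without a test. Chromosome 18 held 8 of the 47 (17.0%) and 429 of the 18337 genes tested (2.35%). They were Mir1948, F830016B08Rik, Ttc39c, Aqp4 and Haus1, which rose, and Prelid2, Nedd4l and 1500015A07Rik, which fell. Among called genes, 8 pairs lay within 25 genes of each other in RefSeq order. Mir1948 and Ttc39c were direct neighbours, Acaa1a and Acaa1b lay 7 genes apart, and Hfe and Slc17a1, which moved in opposite directions, lay 12 apart. Around Cxcr6 itself, 34 genes with a row lay within 25 genes on either side and 23 of them were tested. Of these 1 passed 5%, Cdcp1, and 4 lay outside both wildtype arrays (17.4%, against 23.9% of all genes).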

How the data were processed

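RNA of hepatocytes was measured on whole-transcript arrays. The deposited values are log2 signals, made by the authors with Affymetrix Expression Console, RMA and Transcriptome Analysis Console per the submitters' processing notes, with no versions. As to the genome build, it is not given in the sources. Arrays have no read depth, and their number limits the precision. Of 65956 rows, the 30604 with 1 gene symbol in the platform annotation were used, the row with the highest mean for each of 30142 genes. Of these rows 22815 were matched to RefSeq (GRCm38.p6), which changed 827 symbols. Genes below the median row mean of the table (5.27) in every group were not tested, which left 18337.

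All 11 arrays in 4 groups were fitted with limma 3.58.1 in R 4.3.3 (7 residual degrees of freedom, prior 2.13), two-sided, with Benjamini-Hochberg adjustment over all genes and a threshold of 5%. The fit was tested on simulated data. Errors are standard errors of that fit.

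Replicate numbers were not taken as pairs: same-numbered arrays of Cxcr6 KO and wildtype had correlations of deviations of -0.077 and -0.004, and those of the other pairs of groups ran from -0.272 to 0.275. The members and gene lists were chosen with earlier results of these data known. The rule for naming took the 14 highest and 14 lowest called genes. Of these 26 qualified, 8 calls being left out by name as predicted or unnamed models, microRNAs or olfactory receptors. It also took the 4 members of each list with the smallest p, all core clock genes and the 6 called genes on which the wildtype arrays differed most. Cxcr6, Cxcl16, Ikbkg, Mki67, Cdkn1a, Hsd3b5 and Slco1a1 were taken in any case. Many of the list members taken by the rule are not described, and no fixed rule decided which are. Any gene named outside the rule was chosen after its values were seen, among them Cd1d1, Ehhadh, Hamp, Irf9, Pdk4, Rgs16, Mir122, Mt2, Onecut1 and Hsph1.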

Additional observations from a re-analysis of the deposited data

Results flagged for a closer look

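On Fubp1, a DNA-binding regulator, the 3 Cxcr6 KO arrays lay below both wildtype arrays and the 3 double KO arrays above the 3 Nemo KO arrays. The difference between the 2 contrasts was 1.13 on the log2 scale (limma adjusted p = 0.251). On Ppara, the fatty acid receptor, the 3 Cxcr6 KO arrays lay above both wildtype arrays and the 3 double KO arrays below the 3 Nemo KO arrays, with a difference of -1.28 (limma adjusted p = 0.251). Neither difference passed 5%.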

How the results depend on the processing

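The count of 47 genes in Cxcr6 KO against wildtype was 0 with only the 5 arrays in the fit, 24 with the replicate number as a term (replicate block, 20 of the 47 among them), 24 without a filter, 28 with arrays centred on their medians and 16 with array weights. It was 46 with a stricter filter, 45 after quantile normalization, 38 with a trended robust prior and 47 with the row of largest variance. Leaving out single arrays gave 8 to 493 genes for this count and 0 to 232 for the interaction, which was 0 under the other alternatives. The arrays left out include the 6 with Nemo deleted, an alternative chosen after seeing the data, which gave 19 to 102 genes in place of the 109 of double KO against Nemo KO. The count of 130 genes that did not overlap and differed 2-fold from each wildtype array was 464 at 1.5-fold and 24 at 4-fold. Over the 40 named genes that were called, 331 of 556 alternative fits kept the call and none turned its direction. Over the 62 named genes that were not, 15 of 866 turned direction, 14 of them with an array left out. Both sets of fits include those with 1 wildtype array, which measure no wildtype spread. The cause of these shifts was not tested. The median of all genes was 0.006, -0.014 after centring and 0.054 after quantile normalization. With 2 wildtype arrays from another line than Cxcr6 KO, the wildtype spread is poorly known, and genes near the array medians or near the top of the scale have compressed differences.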

Other observations

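Bile acid and drug metabolism genes showed several differences of the same sign to both wildtype arrays, none past 5%. Of 23 tested genes of bile acid synthesis and transport, 8 lay above and 2 below both wildtype arrays (43.5% not overlapping, against 23.9% of all genes). The list's median was 0.26 against wildtype replicate 1 and 0.61 against replicate 2. Cyp27a1, which starts the alternative route of bile acid synthesis, read 15.62 and 15.34 in wildtype and 16.28, 16.19 and 16.47 in Cxcr6 KO (0.83 ± 0.15, limma adjusted p = 0.0867). Cyp8b1, which sets the share of cholic acid, read 15.11 and 12.45 against 15.85 to 16.36 (limma adjusted p = 0.22). Fgfr4, the receptor through which the gut represses bile acid synthesis, read 9.25 and 9.65 against 8.31 to 8.99 (limma adjusted p = 0.181). The Nrf2 target Gstp1, a glutathione transferase, read 16.41 and 15.85 against 17.31 to 17.53 (1.28 ± 0.25, limma adjusted p = 0.098). Of 20 tested Nrf2 targets 7 lay above and 2 below both wildtype arrays (45.0% not overlapping), with medians of 0.62 and -0.07 against them. Without wildtype replicate 1 the differences were 0.98 for Cyp27a1, 3.57 for Cyp8b1 and 1.56 for Gstp1.

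Genes of the unfolded protein and integrated stress response had medians of -0.60 against wildtype replicate 1 and 0.15 against replicate 2, with 2 of 24 above and 5 below both (29.2% not overlapping, against 23.9% of all genes). Ddit3, the transcription factor of this response that promotes cell death, read 9.17 and 8.44 in wildtype and 7.54, 7.33 and 7.63 in Cxcr6 KO (-1.30 ± 0.24, limma adjusted p = 0.0921). For glucose metabolism, 4 of 23 tested genes lay above and 2 below both wildtype arrays (26.1% not overlapping, against 23.9% of all genes). Among those above, Gys2, the glycogen synthase of liver, read 14.41 and 14.23 against 15.61, 15.79 and 15.29 (limma adjusted p = 0.254). The glucose transporter gene Slc2a2 read 15.40 and 15.74 against 16.39 to 16.68 (limma adjusted p = 0.273). Of the male-biased genes, Nat8f5 read 7.75 and 6.75 against 9.36, 9.67 and 10.18 (2.48 ± 0.45, limma adjusted p = 0.0867) and Susd4 7.96 and 6.27 against 8.77 to 9.54 (limma adjusted p = 0.112). On each gene named here the 2 groups did not overlap. Ddit3 differed by -1.67 without wildtype replicate 2, and Nat8f5 and Susd4 by 2.98 and 2.97 without replicate 1.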
